A study of Mus musculus with 4 samples.

Results

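Lysosomal cathepsins are the proteases that digest proteins inside endosomes and lysosomes. Their RNA was followed here through 9 genes of 18193 with a named probe set, chosen by gene symbol: Ctsb, Ctsl, Ctss, Ctsc, Ctsh, Ctsz, Ctsd, Ctse and Ctsa. The 9 genes were represented by 21 probe sets. Ctss and Ctsd had 1 probe set each and the other 7 genes had several. The genes were proposed with results of these arrays in view, so their values are a description.

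RNA was measured in mouse blood progenitors sorted from Trib1-/- and wild-type animals, all unstimulated and all of a mixed C57BL6J/129SV background. The 4 groups were Trib1-/- MDP, wild-type MDP, Trib1-/- GMP and wild-type GMP, with 1 Affymetrix array each. GMP are granulocyte monocyte progenitors, which give rise to neutrophils and monocytes. MDP usually names the progenitor of monocytes and dendritic cells, and the labels describe these cells as macrophage dendritic cells. The product of Trib1 is a pseudokinase that hands C/EBP proteins to the ubiquitin ligase COP1 for destruction. The sources used here do not give the deleted part of Trib1, the sort gates, the ages or how many animals went into an array.

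Cathepsins are made as inactive precursors in the endoplasmic reticulum and carried to the lysosome, mostly by the mannose 6-phosphate receptors, where acid and other proteases release the active enzyme. Cystatins and stefins hold the cysteine cathepsins in check. In the monocyte, macrophage and dendritic cell lineage these enzymes break down ingested material and cut the invariant chain and antigens for MHC class II. In granulocyte precursors cathepsin C activates the granule serine proteases. The cysteine class held 6 of the 9 genes, the aspartic class 2 (Ctsd and Ctse) and the serine carboxypeptidases 1 (Ctsa).

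All values are log2 values of the deposited array signal after RMA, and all differences are log2 differences. With 1 array per group there was no replicate of any group, so no test was made and no p-value is given. A gene was counted as apart where its difference was at least 1 in size, which is 2-fold. The floor was the median of all values, 3.29, and it was reached on at least 1 array by 11653 genes, among them all 9 cathepsins. On all 4 arrays 8 of the 9 lay above it, Ctse in Trib1-/- GMP being the exception. Of the 21 probe sets, 3 stayed below it everywhere. A gene with several probe sets gives several readings from the same arrays. Over 4922 such genes the pooled SD between probe sets was 0.383 for the genotype difference in MDP and 0.372 for that in GMP. It was 0.422 for MDP minus GMP in Trib1-/- cells and 0.543 in wild-type cells. Biological and array-to-array spread are not part of these SDs.

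The arrays held 45101 probe sets each, with medians between 3.27 and 3.31. The wild-type GMP array correlated less with the wild-type MDP (0.948) and Trib1-/- MDP (0.9497) arrays than the Trib1-/- GMP array did (0.964 and 0.967), and each difference that uses wild-type GMP rests on that single array. The probe sets of Trib1 did not separate the genotypes. The genotype differences of the first were -0.41 in MDP and 0.34 in GMP, and those of the second -0.43 and 0.15. Where the probes lie relative to the deleted part is unknown here, and the genotype labels stand unchecked by it. Of the 7 monocyte and dendritic progenitor markers measured, 4 (Csf1r, Flt3, Irf8 and Ccr2) were at least 2-fold higher in MDP in both genotypes. This is by the probe set with the highest mean. The lowest Csf1r probe set gave 0.996 in Trib1-/- and 0.99 in wild-type cells, and the lowest of Ccr2 gave 0 in wild-type cells. Cx3cr1 differed by only 0.30 in Trib1-/- and 0.34 in wild-type cells. Cd34 and Kit, which are also used to mark MDP, were lower. Cd34 differed by -0.69 in Trib1-/- and -1.35 in wild-type cells. Kit, a receptor of early progenitors, read 2.69 in Trib1-/- MDP and 2.43 in wild-type MDP, below the floor, against 5.39 in Trib1-/- GMP and 6.01 in wild-type GMP.

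**Figure D1:**
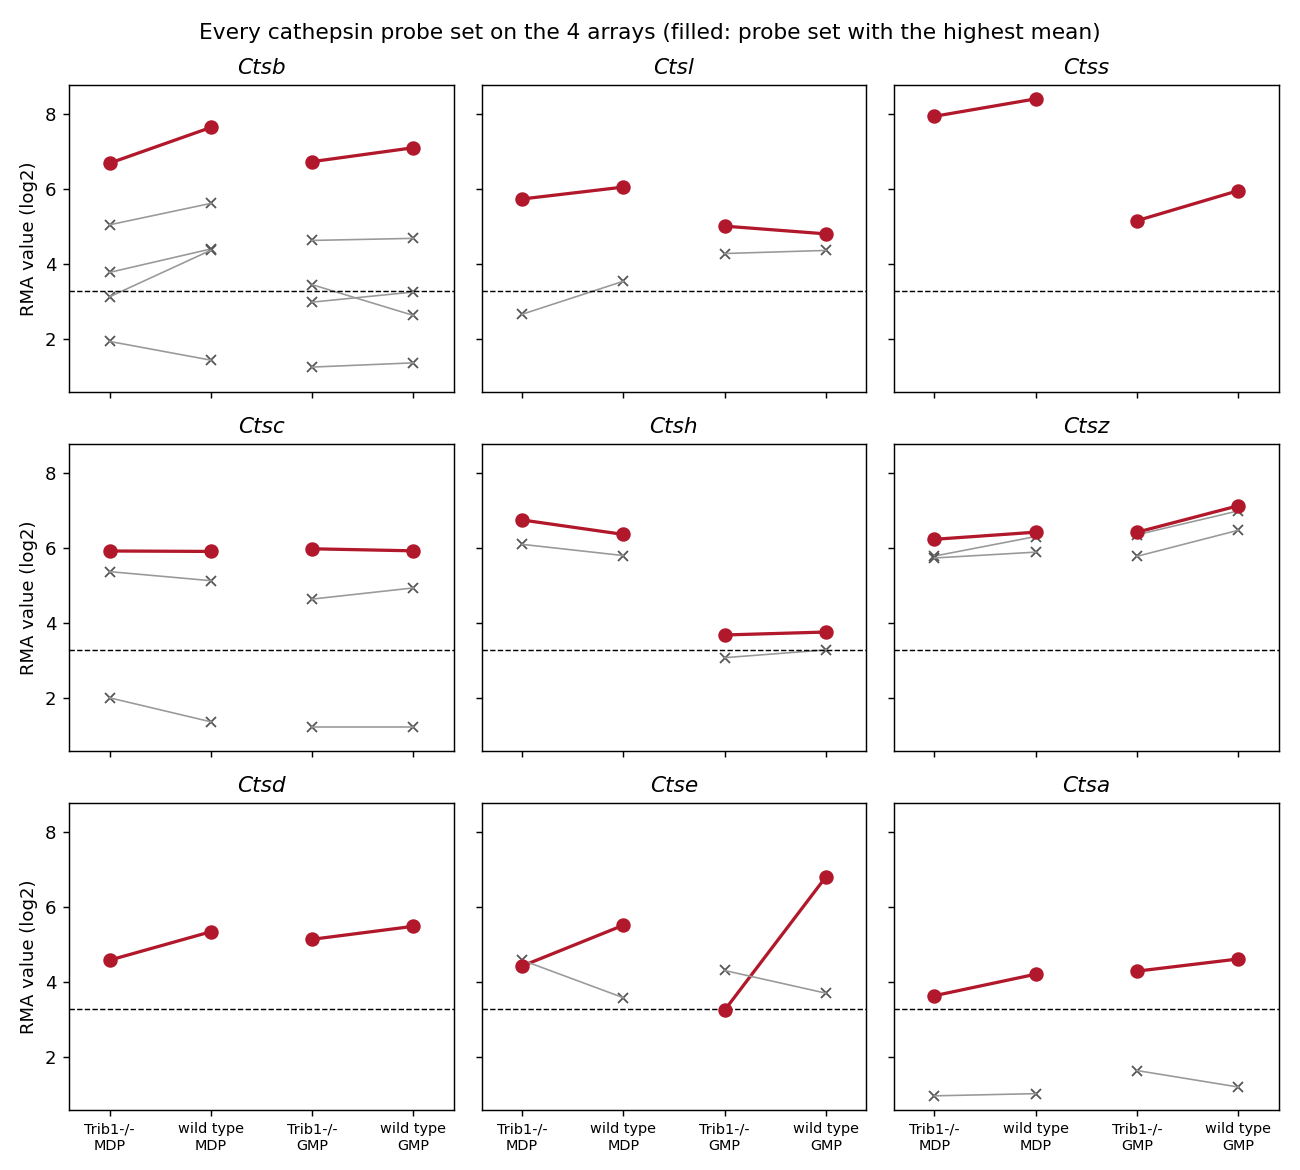
RMA values (log2, y axis) of all 21 cathepsin probe sets on the 4 arrays (x axis), a panel for each gene; lines join the genotypes of a cell type and the dashed line is the floor of 3.29. Red circles are the probe set with the highest mean and grey crosses the others; Ctss and Ctsh sit high on both MDP arrays, the main Ctsc probe set is level, and the probe sets of Ctse cross.

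The first question was how MDP differ from GMP in their cathepsins. Ctss and Ctsh, both cysteine cathepsins of antigen-presenting cells, were much higher in MDP, by 5.44-fold or more in each genotype. The main probe set of Ctsc, that with the highest mean, was level. Ctsl had probe sets that went different ways, and 1 of the 2 probe sets of Ctse was over 2-fold apart in opposite directions in the 2 genotypes. By the probe set with the highest mean, the remaining genes were less than 2-fold apart.

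Cathepsin S cuts the invariant chain in the last step before peptides are loaded on MHC class II. Ctss read 7.93 in Trib1-/- MDP and 8.40 in wild-type MDP, against 5.15 in Trib1-/- GMP and 5.95 in wild-type GMP. Both MDP arrays lay above both GMP arrays. The difference MDP minus GMP was 2.78 in Trib1-/- cells (6.87-fold higher) and 2.44 in wild-type cells (5.44-fold higher). Both were over 4 times the pooled SD between probe sets. With 32 added to the linear values, which damps differences of weak genes, they were 2.03 and 1.97.

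Cathepsin H is an aminopeptidase that trims peptides from their amino end. Ctsh read 6.75 in Trib1-/- MDP and 6.36 in wild-type MDP, against 3.68 in Trib1-/- GMP and 3.76 in wild-type GMP. The GMP values lay close to the floor. The difference was 3.06 in Trib1-/- cells (8.36-fold higher in MDP) and 2.60 in wild-type cells (6.06-fold higher). The second probe set of Ctsh gave 3.02 and 2.51, with GMP values of 3.08 in Trib1-/- and 3.28 in wild-type cells that lay below the floor. With 32 added to the linear values the differences were 1.64 and 1.33.

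Cathepsin L is an endopeptidase found in most cells, and its probe sets disagreed. The probe set with the higher mean read 5.73 in Trib1-/- MDP and 6.05 in wild-type MDP, against 5.01 in Trib1-/- GMP and 4.80 in wild-type GMP. Its MDP minus GMP difference was 0.72 in Trib1-/- cells and 1.25 in wild-type cells (2.37-fold higher). The other probe set of Ctsl read 2.66 in Trib1-/- MDP and 3.54 in wild-type MDP, against 4.28 in Trib1-/- GMP and 4.36 in wild-type GMP. Its differences were -1.62 and -0.82, the other direction, and with both probe sets averaged they were -0.45 and 0.21. No direction of Ctsl between the progenitors can be given.

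Cathepsin B acts as an endopeptidase and also removes dipeptides from the carboxyl end. Ctsb read 6.69 in Trib1-/- MDP and 7.64 in wild-type MDP, against 6.73 in Trib1-/- GMP and 7.10 in wild-type GMP. Wild-type MDP was the highest array. In wild-type cells MDP was above GMP in all 4 probe sets above the floor, by 0.54 to 1.74. The lower ends of the 2 largest of these, 3.25 and 2.63 in wild-type GMP, lay below the floor. In Trib1-/- cells the same probe sets gave -0.32 to 0.79.

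Cathepsin C, a dipeptidyl peptidase, removes dipeptides from the amino end and so activates neutrophil elastase, proteinase 3, cathepsin G and the granzymes. Ctsc read 5.92 in Trib1-/- MDP and 5.91 in wild-type MDP, against 5.98 in Trib1-/- GMP and 5.92 in wild-type GMP. The span of this probe set over the 4 arrays was 0.070. A second probe set of Ctsc differed by 0.73 between MDP and GMP in Trib1-/- cells and by 0.19 in wild-type cells. The third stayed below the floor.

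Cathepsin Z (also called X) is a carboxypeptidase. Ctsz read 6.23 in Trib1-/- MDP and 6.42 in wild-type MDP, against 6.42 in Trib1-/- GMP and 7.12 in wild-type GMP. Wild-type GMP stood above the other arrays in all 3 probe sets. MDP minus GMP was between -0.57 and -0.044 in Trib1-/- cells and between -0.70 and -0.58 in wild-type cells over these probe sets. All 3 carry suffixes of the array design for probes that can match several transcripts.

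Cathepsin D, the main aspartic endopeptidase of lysosomes, and cathepsin A, a serine carboxypeptidase that protects beta-galactosidase and neuraminidase, read slightly lower in MDP. Ctsd read 4.58 in Trib1-/- MDP and 5.34 in wild-type MDP, against 5.14 in Trib1-/- GMP and 5.49 in wild-type GMP. Ctsa read 3.64 in Trib1-/- MDP and 4.21 in wild-type MDP, against 4.29 in Trib1-/- GMP and 4.61 in wild-type GMP. Trib1-/- MDP was the lowest array and wild-type GMP the highest for both genes. MDP minus GMP was -0.56 for Ctsd and -0.65 for Ctsa in Trib1-/- cells. In wild-type cells it was -0.14 and -0.41, smaller than the pooled SD between probe sets.

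Cathepsin E is an aspartic protease of endosomes, and its 2 probe sets differed in size. The probe set with the higher mean read 4.43 in Trib1-/- MDP and 5.51 in wild-type MDP, against 3.25 in Trib1-/- GMP and 6.80 in wild-type GMP. Its MDP minus GMP difference was 1.18 in Trib1-/- cells and -1.29 in wild-type cells. The other probe set of Ctse read 4.58 in Trib1-/- MDP and 3.58 in wild-type MDP, against 4.31 in Trib1-/- GMP and 3.71 in wild-type GMP. It gave 0.28 and -0.12, the same signs at a smaller size.

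In total 3 of the 9 cathepsins (Ctss, Ctsh and Ctse) were at least 2-fold higher in MDP than in GMP in Trib1-/- cells and 0 were lower. Of all 11653 genes, 2.75% were higher and 4.08% lower by that size. In wild-type cells 3 of 9 (Ctss, Ctsh and Ctsl) were at least 2-fold higher and 1 (Ctse) lower, where 4.16% of all genes were higher and 12.4% lower. The counts use the probe set with the highest mean: the other probe sets of Ctsl and Ctse were not 2-fold higher, and with probe sets averaged 2 of 8 were higher and 0 lower in wild-type cells. With each array centred on its median above the floor, the shares of all genes in wild-type cells were 6.74% higher and 9.53% lower. Since the genes were chosen with these values known, nothing is read from their count. The median of the 9 was -0.041 in Trib1-/- cells and -0.016 in wild-type cells, against -0.014 and -0.043 over all genes. The differences in the 2 genotypes share no array.

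**Figure D2:**
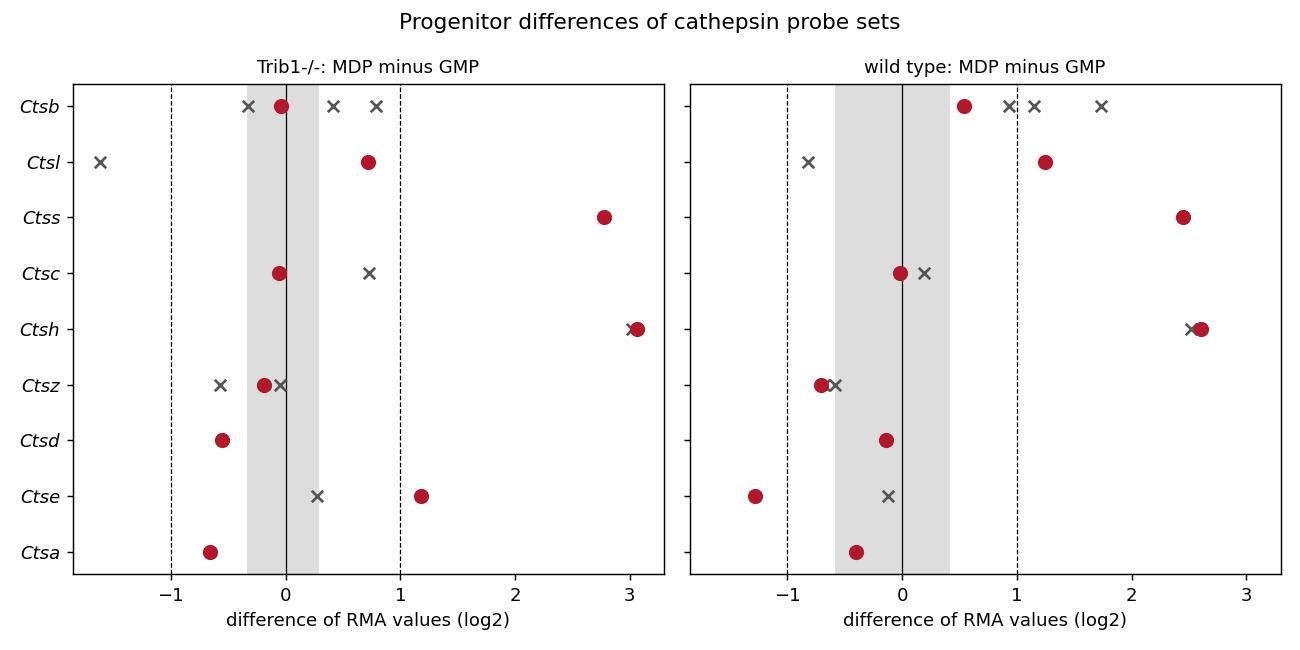
MDP minus GMP differences (log2, x axis) of the 18 cathepsin probe sets that reached the floor, in Trib1-/- (left) and wild-type (right) cells; red circles are the probe set with the highest mean of each gene, grey crosses the others, the grey band the middle 50% of all genes and dashed lines 2-fold. Ctss and Ctsh lie at 2.44 or above in both panels, while the probe sets of Ctsl lie on both sides of 0.

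Markers of other cell types also differed between the arrays. Resident macrophage markers summed on the linear scale to 133 in Trib1-/- MDP and 539 in wild-type MDP, against 135 in Trib1-/- GMP and 157 in wild-type GMP. Of the 14 markers, 11 reached the floor; the complement genes C1qa and C1qc and the gene Cd5l did not. In wild-type cells 10 of the 11 were at least 2-fold higher in MDP, and in Trib1-/- cells 1 was. Some of their values lay below the floor, and once these were set to the floor 8 of the 11 were higher in wild-type cells and 0 in Trib1-/- cells. Their part in the cathepsin values was not tested. Dendritic cell markers summed to 622 in Trib1-/- MDP and 606 in wild-type MDP, against 323 in Trib1-/- GMP and 273 in wild-type GMP. Tcf4, a transcription factor gene that other cells also express, made up most of these sums, which without it were 165 in Trib1-/- MDP and 160 in wild-type MDP, against 99.8 in Trib1-/- GMP and 95.7 in wild-type GMP. By the probe set with the highest mean, 9 of 11 such markers reached the floor and 3 were at least 2-fold higher in MDP in each genotype. The MHC class II genes H2-Ab1 and H2-Eb1 stayed below the floor by that probe set, but another probe set of H2-Ab1 reached it. The part of dendritic cells in the cathepsin values was not tested. GMP and early granulocyte markers were at least 2-fold lower in MDP for 6 of 7 in Trib1-/- cells and for 7 of 7 in wild-type cells. Markers of cells that the sorts should lack summed to 92.9 to 130 for mature neutrophils, 370 to 542 for erythroid cells, 129 to 206 for B cells and 30.5 to 48.9 for T and NK cells over the 4 arrays. The erythroid sum was mostly Tfrc, the transferrin receptor gene of dividing cells, and was 26.1 to 93.1 without it, and the B cell sum was mostly Ebf1 and was 42.0 to 52.8 without it. In sorted bulk samples, fewer cells of a type and less RNA per cell cannot be told apart.

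The next question was what loss of Trib1 did to the cathepsins in each progenitor. By the probe set with the highest mean, 7 of 9 were below 0 in Trib1-/- MDP and 7 of 9 in Trib1-/- GMP, where 48.5% and 55.2% of all genes were. Of these 7, 2 in MDP and 4 in GMP were within the pooled SD between probe sets. Ctse aside, whose probe sets went opposite ways, the largest in MDP were Ctsb (-0.95), Ctsd (-0.76) and Ctsa (-0.57), and in GMP Ctss (-0.80) and Ctsz (-0.71), all under 2-fold.

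In MDP, all 4 Ctsb probe sets that reached the floor read lower in Trib1-/- cells, with differences of -0.57 to -1.24. The probe set at -1.24 read 3.13 in Trib1-/- MDP, below the floor, and 4.37 in wild-type MDP, and 2 of the 4 reached the floor on only 2 arrays. In GMP the same 4 gave -0.37 to 0.82, and the mean over all 5 probe sets was 0.002. The resident macrophage markers moved in the same direction in MDP: in Trib1-/- MDP 9 of 11 were lower by at least 2-fold, with a median of -1.69, and in GMP 0 of 11 were 2-fold apart. Once values under the floor were set to it, 7 of 11 were lower in Trib1-/- MDP, with a median of -1.23. Their part in the Ctsb, Ctsd and Ctsa values was not tested.

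Ctsd was lower by 0.76 in Trib1-/- MDP and by 0.35 in Trib1-/- GMP, on a single probe set. Ctsa was lower by 0.57 in Trib1-/- MDP and by 0.32 in Trib1-/- GMP. Both directions were thus the same in MDP and GMP, which have no array in common. The MDP differences of both genes exceeded the pooled SD between probe sets, and the GMP differences did not. With 32 added to the linear values the MDP differences were -0.37 for Ctsd and -0.18 for Ctsa.

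The sequences before the starts of the cathepsin genes were searched for CACGTG, the core letters of the element bound by TFEB, a regulator of lysosomal genes. The letters read the same on both strands. Promoter sequences were taken from RefSeq on build GRCm38.p6, and the 250 bases before each start were used. They were found for 6 of the 9 genes, in 7 windows, and not for Ctsb, Ctse and Ctsh. Capitals mark the match, and each sequence runs 5′ to 3′ on the strand of the gene. The window of Ctsd lies at chr7:142387828-142388077 on the minus strand, that of Ctsa at chr2:164833523-164833772 on the plus strand, that of Ctsl at chr13:64370521-64370770 on the minus strand and that of Ctss at chr3:95526536-95526785 on the plus strand. Ctss is shown as the gene with the largest MDP minus GMP difference among those with a window.
Ctsd: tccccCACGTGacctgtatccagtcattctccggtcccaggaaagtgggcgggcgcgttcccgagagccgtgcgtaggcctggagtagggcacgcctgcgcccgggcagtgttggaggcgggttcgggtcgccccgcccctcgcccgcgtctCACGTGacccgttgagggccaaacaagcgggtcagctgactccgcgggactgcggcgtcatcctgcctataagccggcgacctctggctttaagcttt
Ctsa: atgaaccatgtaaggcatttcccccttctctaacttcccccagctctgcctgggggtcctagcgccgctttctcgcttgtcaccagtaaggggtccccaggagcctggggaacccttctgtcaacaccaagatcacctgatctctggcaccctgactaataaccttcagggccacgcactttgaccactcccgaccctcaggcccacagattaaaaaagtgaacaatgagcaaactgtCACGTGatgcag
Ctsl: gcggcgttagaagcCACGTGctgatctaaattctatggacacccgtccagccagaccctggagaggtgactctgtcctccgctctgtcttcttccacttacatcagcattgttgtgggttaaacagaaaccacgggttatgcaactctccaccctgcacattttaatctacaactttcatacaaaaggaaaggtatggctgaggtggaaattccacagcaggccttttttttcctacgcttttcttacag
Ctss: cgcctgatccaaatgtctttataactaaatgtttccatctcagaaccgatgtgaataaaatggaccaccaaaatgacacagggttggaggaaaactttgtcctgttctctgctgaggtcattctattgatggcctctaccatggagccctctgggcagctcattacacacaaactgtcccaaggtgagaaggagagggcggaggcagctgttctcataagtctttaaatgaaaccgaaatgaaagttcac
The Ctsd window held CACGTG at 245 and at 98 bases before the start. The Ctsa window held it 12 bases before the start, and a second Ctsa window, for another start, held none. The Ctsl window held it 236 bases before the start. Of 32851 promoter windows, 6.02% held CACGTG, and 0.429% held it at least 2 times as that of Ctsd did. The windows of Ctss, Ctsc and Ctsz held none. A second string, GAGGAAGT, which resembles the letters bound by the myeloid factor PU.1, was searched on both strands and was present in 2.44% of all windows. Among the cathepsins only the Ctsc window, of those 7, held it, 151 bases before the start. These matches are letters in a window and show no binding.

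Ctss was lower in Trib1-/- cells of both kinds, by 0.46 in MDP and 0.80 in GMP, on a single probe set. Ctsz was lower by 0.71 in Trib1-/- GMP, and its other probe sets gave -0.64 and -0.69. In Trib1-/- MDP Ctsz differed by -0.19, with other probe sets at -0.52 and -0.16. Ctsh read 0.38 higher in Trib1-/- MDP (second probe set 0.30) and -0.078 in Trib1-/- GMP (second probe set -0.21). Ctsc differed by 0.012 in MDP and 0.054 in GMP, with a second probe set at 0.24 and -0.30.

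Ctsl differed by -0.32 in Trib1-/- MDP and 0.21 in Trib1-/- GMP. Its other probe set gave -0.88 and -0.082, so both probe sets were lower in Trib1-/- MDP. The knockout MDP value of that probe set, 2.66, lay below the floor.

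Ctse had the largest genotype difference of any cathepsin and the least agreement. The probe set with the higher mean was 11.7-fold lower in Trib1-/- GMP and 2.12-fold lower in Trib1-/- MDP. The other probe set was higher in the Trib1-/- arrays, by 0.60 in GMP and by 1.0002 in MDP, just past 2-fold. It read only 3.58 to 4.58 and carries a suffix for probes that can match several transcripts, which the first does not. With the probe sets averaged the differences were -1.47 in GMP and -0.043 in MDP. With 32 added to the linear values they were -1.79 and -0.54. The direction of Ctse between genotypes cannot be given from these arrays. Basophil and mast cell markers were lower in Trib1-/- GMP: all 7 measured were below 0 and 4 were at least 2-fold lower. Of all genes, 55.2% were below 0 and 3.16% at least 2-fold lower there. They summed on the linear scale to 200 in Trib1-/- GMP and 483 in wild-type GMP. In MDP they summed to 61.4 in Trib1-/- and 74.3 in wild-type cells, with 2 of the 7 above the floor on each array. Their part in the Ctse value was not tested.

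Counted at 2-fold by the probe set with the highest mean, 1 of 9 cathepsins (Ctse) was lower and 0 were higher in Trib1-/- MDP, where 1.53% of all genes were lower and 1.1% higher. In Trib1-/- GMP 1 of 9 (Ctse) was lower and 0 were higher, where 3.16% of all genes were lower and 0.481% higher. The other probe set of Ctse was higher, not lower, in both, so these counts rest on 1 probe set. With each array centred on its median above the floor, the GMP shares of all genes were 1.97% lower and 0.874% higher. Ctsb in MDP fell just short of 2-fold at -0.95, and under a cyclic loess of the arrays it passed it (-1.04). It was smaller with probe sets averaged (-0.58) and with 32 added to the linear values (-0.78). The median of the 9 was -0.46 in MDP, against 0.012 over all genes, and -0.35 in GMP, against -0.057 over all genes. By the probe set with the highest mean, the fold between genotypes of every cathepsin but Ctse was between 1.01 and 1.93 in MDP. In GMP it was between 1.04 and 1.74. Another Ctsb probe set lay outside these ranges, at -1.24 in MDP, past 2-fold, and 0.82 in GMP.

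**Figure D3:**
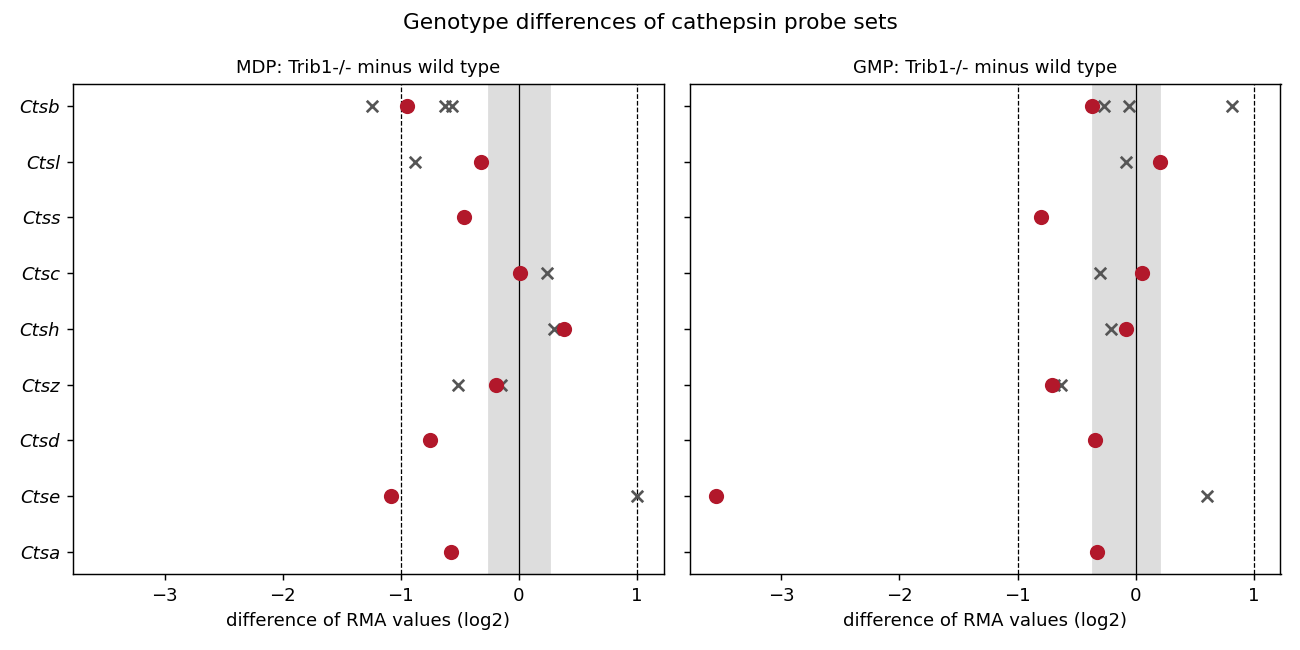
Trib1-/- minus wild-type differences (log2, x axis) of the 18 cathepsin probe sets that reached the floor, in MDP (left) and GMP (right); red circles are the probe set with the highest mean of each gene, grey crosses the others, the grey band the middle 50% of all genes and dashed lines 2-fold. The 4 Ctsb probe sets all lie below 0 in MDP, and the probe sets of Ctse lie on both sides of 0 in each panel.

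Of the cystatin, stefin and serpin genes that reached the floor, Cst7, Cstb and Serpinb1a were lower in MDP, unlike Ctss and Ctsh. Of 10 cystatins, stefins and serpins listed, 7 were measured and 4 reached the floor. By the probe set with the highest mean, 3 of the 4 were lower by at least 2-fold in MDP than in GMP in each genotype. Cst7 encodes cystatin F, an inhibitor carried to lysosomes that acts on cathepsin C. It read 4.19 in Trib1-/- MDP and 3.89 in wild-type MDP, against 6.03 in Trib1-/- GMP and 6.89 in wild-type GMP. Cstb, the gene of the cytosolic inhibitor stefin B, read 3.96 in Trib1-/- MDP and 4.84 in wild-type MDP, against 5.67 in Trib1-/- GMP and 6.45 in wild-type GMP. Its second probe set gave -0.54 in Trib1-/- and -0.99 in wild-type cells for MDP minus GMP, where the first gave -1.71 and -1.61. Serpinb1a, which is neither a cystatin nor a stefin and whose product inhibits neutrophil serine proteases, differed by -2.82 in Trib1-/- and -3.08 in wild-type cells. Cst3, the gene of the secreted inhibitor cystatin C, was the exception at 0.84 and 0.35.

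Between genotypes, all 4 inhibitor genes were lower in Trib1-/- GMP by less than 2-fold. Cst3 differed by -0.98, Cst7 by -0.86, Cstb by -0.78 and Serpinb1a by -0.75. In Trib1-/- MDP, Cstb differed by -0.88 (second probe set -0.47), Serpinb1a by -0.50, Cst3 by -0.49 and Cst7 by 0.30.

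The granule proteases activated by cathepsin C were lower in MDP, where the main Ctsc probe set was level and its second gave 0.73 in Trib1-/- and 0.19 in wild-type cells. Of 8 listed, 7 were measured and 5 reached the floor, and all 5 were at least 2-fold lower in wild-type MDP than in wild-type GMP. In Trib1-/- cells 3 of the 5 were. Elane, the neutrophil elastase gene, differed by -5.53 in Trib1-/- and -5.33 in wild-type cells, while Ctsc differed by -0.058 and -0.016. Prtn3, the proteinase 3 gene, differed by -2.38 and -2.98, and Ctsg by -2.99 and -3.43. Cathepsin G, despite its name, is such a granule serine protease. Between genotypes all 5 were below 0 in GMP, with Gzmb (-3.37) and the basophil protease gene Mcpt8 (-1.56) at least 2-fold lower, and Ctsc at 0.054 (second probe set -0.30). Gzmb reached the floor only in wild-type GMP (4.99), and with the Trib1-/- GMP value raised to the floor its difference was -1.71.

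Among the partners and substrates, all 7 listed genes reached the floor. Psap, whose product prosaposin is cut by cathepsin D into the saposins, read 7.81 in Trib1-/- MDP and 7.93 in wild-type MDP, against 5.59 in Trib1-/- GMP and 5.84 in wild-type GMP. Its MDP minus GMP difference was 2.22 in Trib1-/- and 2.10 in wild-type cells, and its second probe set gave 2.94 and 1.94. Ifi30, the gene of the lysosomal thiol reductase that opens disulfide bonds of antigens, differed by 1.35 and 1.02. Gaa went the other way, by -1.22 and -1.49, with both MDP values below the floor (-0.64 and -1.05 when raised to it). Its second probe set gave -0.14 and -0.68. Glb1, the beta-galactosidase gene, differed by -1.02 and -1.79, with both MDP values below the floor (-0.55 and -1.13 when raised to it). Neu1, the neuraminidase gene, differed by 0.45 and 0.99, and its second probe set by only 0.25 and 0.15. The genes whose products cathepsin A protects thus differed in sign, Glb1 with MDP values below the floor. Cd74, the gene of the invariant chain cut by cathepsin S, read 3.66 in Trib1-/- MDP and 3.61 in wild-type MDP, against 3.71 in Trib1-/- GMP and 2.92 in wild-type GMP, all near the floor. By the probe set with the highest mean, none of the 7 was 2-fold apart between genotypes in either progenitor, and the second probe set of Psap gave -1.14 in GMP.

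The genes that carry cathepsins to lysosomes were less than 2-fold apart in all 4 comparisons, for the 5 of 6 that reached the floor. M6pr, the smaller mannose 6-phosphate receptor, came closest at -0.998 in wild-type cells for MDP minus GMP, just short of 2-fold. Gnptab, the gene of the enzyme that starts the mannose 6-phosphate tag, differed by 0.77 in Trib1-/- MDP against wild-type MDP (second probe set 0.064) and by -0.49 in GMP. Of the regulators of lysosomal genes, 4 of 5 reached the floor and Tfeb did not. Tfec, a relative of TFEB in myeloid cells, was lower in MDP than in GMP, by -1.02 in Trib1-/- and -1.06 in wild-type cells. Tfe3 and Mitf, of the same family, and Zkscan3 lay between -0.063 and 0.63. Between genotypes the 4 regulators lay between -0.19 and 0.15 by the probe set with the highest mean. Probe sets of Zkscan3 ranged from -0.24 to 0.34 in GMP and down to -0.21 in MDP, and another of Mitf gave 0.24 in MDP. Of the other cathepsin genes, Ctsf, Ctsk, Ctsw and the asparaginyl protease gene Lgmn stayed below the floor on every array. Ctso, of the cysteine class, read 0.53 higher in Trib1-/- MDP and 0.50 in Trib1-/- GMP, and its second probe set gave 0.82 and -0.15.

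**Figure D4:**
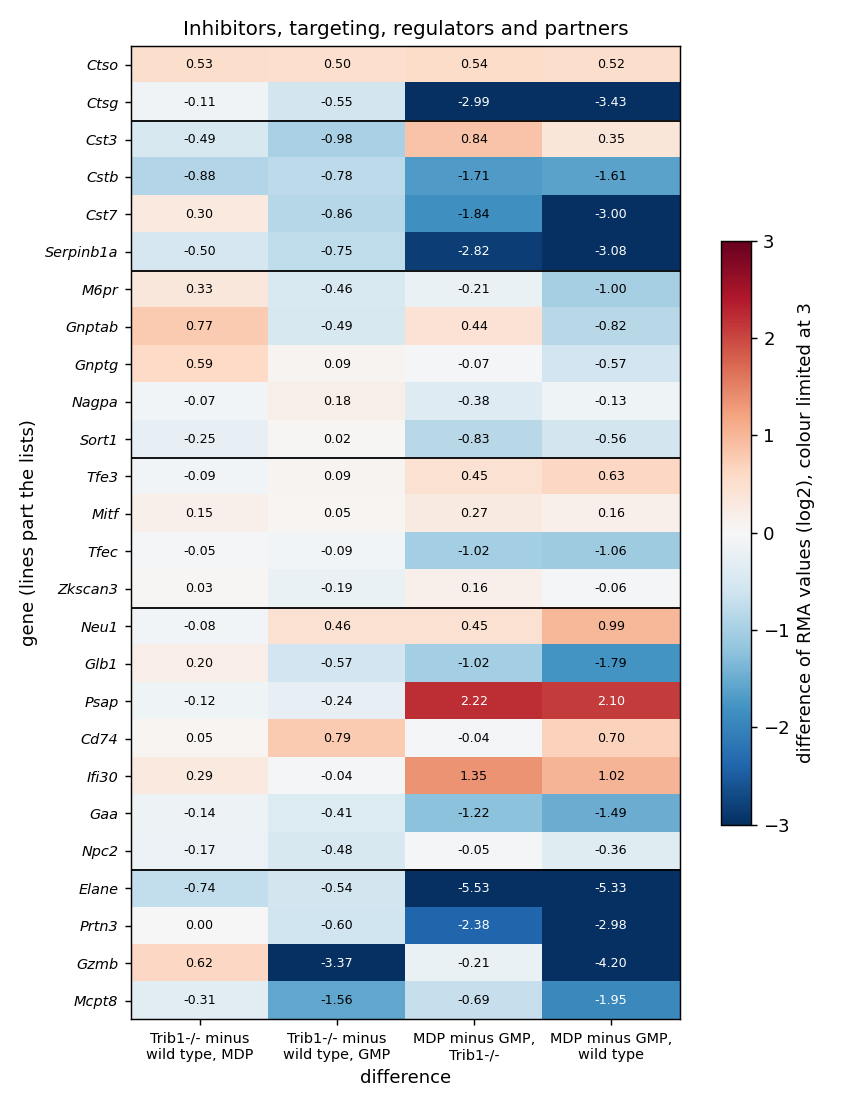
Differences (log2, colour and printed value) of the genes of the 6 lists that reached the floor (rows, each gene shown once) in the 4 comparisons (columns); blue is lower and red higher in the first-named group of each column. Psap and Ifi30 are higher in MDP, while Glb1, Gaa, Cst7, Cstb, Serpinb1a and the granule protease genes are lower.

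Lastly, the genes most like each cathepsin over the 4 arrays were sought for the 4 cathepsins that spanned at least 1 log2 unit. Likeness was the root mean square difference of the 4 values once each gene's mean was taken off, over 10857 genes. With only 4 arrays these are descriptions. Ctss was closest to Irf8 (0.155), a transcription factor gene of monocytes and dendritic cells, and to Tmem109 (0.177). Irf8 read 7.77 in Trib1-/- MDP and 7.81 in wild-type MDP, against 4.81 in Trib1-/- GMP and 5.51 in wild-type GMP. No gene beyond these 2 lay within 0.25 of Ctss. Ctsh was closest to Ptpro (0.0579), a receptor tyrosine phosphatase gene, and Pdzd4 (0.0892), with 4 genes within 0.25. Ctsl had 596 genes within 0.25, led by Sgce (0.0115). Ctse had 0 genes within 0.25, and the closest, Tmem107 (0.699) and Cd72 (0.734), were far from it.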

How the data were processed

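RNA of 4 sorted mouse samples was extracted with Trizol and then amplified and biotin-labelled (NuGEN Ovation), per the labels' protocols. The authors deposited values made with RMA, per the submitters' processing notes of a version not given in the sources used here. RMA subtracts background, gives every array the same distribution and merges the probes of a probe set, so a difference in total RNA per cell cannot be seen. The deposited values are taken as log2, inferred from their range of 0.14 to 14.5. They are not centred on 0, and each column holds 1 array, so no ratio direction is in question.

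Of 45101 probe sets, 64 were controls, 34945 had 1 gene symbol, 932 several and 9160 no entry in the platform annotation. Genes were named only from probe sets with 1 symbol. Where a gene had several probe sets, the one with the highest mean stood for it. The 4 differences were formed with no test, in Python 3.11.15 with pandas 2.3.3, and cyclic loess (3 iterations) was run with limma 3.58.1. The calculation was tested on simulated data. The cathepsins, the gene lists, the markers and the search strings were chosen with earlier results of these data known. The genes named were all 9 cathepsins, up to 5 of each list by largest difference, those with a stated role beside a cathepsin, and the 2 genes most like each cathepsin that spanned 1 log2 unit. Sums of marker lists are sums of linear values. The number of arrays limits the precision.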

Additional observations from a re-analysis of the deposited data

Results flagged for a closer look

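The same difference had opposite signs in the other cell type or genotype for 4 of the cathepsins. With 1 array per group none of these was tested. For Ctse, MDP minus GMP was 1.18 in Trib1-/- and -1.29 in wild-type cells. For Ctsb it was -0.041 in Trib1-/- and 0.54 in wild-type cells. For Ctsl, Trib1-/- minus wild type was -0.32 in MDP and 0.21 in GMP. For Ctsh it was 0.38 in MDP and -0.078 in GMP. Both values of Ctsb and both of Ctsl lay within the pooled SD between probe sets. So did the GMP value of Ctsh, while its MDP value (0.385) barely exceeded the SD of 0.383. The wild-type value of Ctsb (0.541) was only just within the SD of 0.543. Its other probe sets that reached the floor gave 0.93 to 1.74 there, in part from wild-type GMP values below the floor. The other probe set of Ctsl had the same sign in both, -0.88 in MDP and -0.082 in GMP.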

How the results depend on the processing

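No paired analysis was possible because each group is 1 array. Of the 272 differences of single cathepsins recomputed under the alternatives, 255 moved by less than the pooled SD between probe sets and 17 by more. With 32 added to the linear values 9 moved by more and 27 did not, and with probe sets averaged 8 did and 24 did not. The 255 include values that could not move. Dropping the floor (36 values), using a stricter one of 4.78 (32) and omitting probe sets with suffixes for several transcripts (28) all returned the main values unchanged. Setting low values to the floor altered only Ctse. The count of 255 is thus no measure of stability. No difference of at least 2-fold changed sign under any alternative, but none of them used a gene's other probe set alone. That of Ctsl gave -0.82 for MDP minus GMP in wild-type cells, where the main value was 1.25. That of Ctse gave 0.60 in GMP and 1.0002 in MDP between genotypes, where the main values were -3.55 and -1.09. Leaving out probe sets that can match several transcripts (7 genes remained) gave a median of MDP minus GMP of 0.72 in Trib1-/- and 0.54 in wild-type cells, and averaging probe sets (8 genes remained) gave 0.39 in Trib1-/- cells. The number at least 2-fold lower in Trib1-/- MDP was 0 with probe sets averaged, with 32 added and at 4-fold, 2 under cyclic loess and 3 at 1.5-fold. The number lower in MDP than GMP in wild-type cells was 0 with probe sets averaged, with 32 added and at 4-fold, and 2 at 1.5-fold. At 1.5-fold, 3 were lower in Trib1-/- GMP and 1 was lower in MDP than GMP in Trib1-/- cells. Of all genes, 7.61% were lower at 1.5-fold in Trib1-/- MDP and 13.2% in Trib1-/- GMP. For MDP minus GMP the share at 1.5-fold was 12.7% in Trib1-/- and 24.8% in wild-type cells. Under cyclic loess 1.42% of all genes were at least 2-fold lower in Trib1-/- MDP. Values near the floor (Ctsa, Ctsh in GMP, Ctse in Trib1-/- GMP) have the least certain folds.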

Other observations

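The platform also names 9 cathepsin genes that are neither among the 9 described nor in a list, most of them known from the mouse placenta. They were looked at after the other values were seen. On all 4 arrays 8 of them stayed below the floor, the highest value being 2.90. Ctsr, a placental cathepsin gene, read 5.26 in Trib1-/- MDP and 5.70 in wild-type MDP, against 5.37 in Trib1-/- GMP and 5.05 in wild-type GMP.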
